A study of Mus musculus with 16 samples.

Results

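The effect of losing 1 Runx2 allele while Axin2 was intact was described across 9918 genes of the calvaria, which forms the roof of the skull, in male mice at postnatal day 7. R-Het mice carried 1 inactivated Runx2 allele (Runx2+/-) and 2 intact Axin2 alleles, and were set against wild-type mice (WT), with 4 mice of each genotype and 1 array per mouse. These 8 arrays were part of 16. The other genotypes were A-KO R-Het (Axin2-/- and Runx2+/-, 4 arrays) and A-KO (Axin2-/-, 3 arrays used, because A-KO replicate 2 is labelled as damaged). They served for 1 shared estimate of the spread of each gene, and the difference between them gave the same allele loss without Axin2. Per the series design and labels, no agent was given, and how each allele was made, the strain and the litters are not given in the sources used here. The 9918 genes were those with a symbol whose probe exceeded the array median on 3 or more of the 15 arrays used, out of 16593 genes with a probe, so genes with weak signal throughout were not described.

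Runx2 is a transcription factor of the RUNX family. With its partner Cbfb it binds DNA at a short core motif and commits mesenchymal cells to the osteoblast fate. It also drives chondrocyte hypertrophy in cartilage. In mice and in people, loss of 1 allele gives cleidocranial dysplasia, with open fontanelles, wide sutures and small clavicles. Osteoblast-lineage cells in turn direct osteoclasts, the multinucleate cells of haematopoietic origin that dissolve bone with acid and proteases, through the ligand encoded by Tnfsf11.

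Intensity of the deposited values was taken to log2, and a difference is given as R-Het minus WT on this scale ± its standard error, so that 1 unit is a doubling. Median intensity was 92.9 to 95.5 on the R-Het and WT arrays. Arrays of both genotypes resembled each other closely: the median correlation across genes was 0.978 among R-Het arrays, 0.983 among WT arrays and 0.980 between R-Het and WT arrays, and genes are not independent replicates. The tissue label fits the bone markers, since Bglap (14.29, 14.70, 14.61 and 14.57 on R-Het and 14.40, 14.20, 14.64 and 14.66 on WT arrays) and Col1a1 were among the brightest genes. The brain genes Snap25 and Gfap, the meningeal genes Slc6a13, Slc22a6 and Ptgds and the skin genes Krt5 and Krt14 did not pass the filter on low values. Mbp, of the same brain markers (mean 8.65 on R-Het and 8.01 on WT arrays), and Krt10, of the same skin markers (9.37 and 9.18), did pass it. The skeletal muscle list was uneven within both genotypes, with list means of -1.48, -0.37, -1.26 and 1.94 on R-Het arrays and 1.30, -0.28, 1.75 and -0.39 on WT arrays (log2, relative to the mean of 15 arrays). R-Het replicate 4, WT replicate 3 and WT replicate 1 were the 3 arrays highest in it. Bulk tissue was measured, so fewer cells of a type and less RNA per cell cannot be told apart in any result below.

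In R-Het calvaria 5 genes changed relative to WT, of which 2 rose and 3 fell, with the threshold at a limma adjusted p of 0.05. That was 0.0504% of the genes tested (0.0202% higher and 0.0302% lower). At an unadjusted p under 0.05 were 916 genes (9.24%), 458 in each direction. Aard, a gene first described in testis, rose the most, and Six2, a homeobox gene of cranial mesenchyme, rose too. Cldn10, which encodes a claudin of tight junctions, fell the most, followed by Manba, the lysosomal beta-mannosidase, and Tmem86a, which encodes a hydrolase that breaks down lysoplasmalogen lipids. The typical difference was much smaller: its median size over all 9918 genes was 0.09, its 95th percentile 0.33, and the median standard error 0.11.

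Aard read 9.39, 9.40, 9.49 and 9.18 on R-Het arrays and 8.30, 8.34, 8.69 and 8.43 on WT arrays. Every R-Het array lay above every WT array, a 1.90-fold rise of 0.93 ± 0.14 (limma adjusted p = 0.0396, n = 4 each). In mice without Axin2 the gene read 8.92, 8.89, 9.54 and 9.16 in A-KO R-Het and 8.96, 8.55 and 8.52 in A-KO, a difference of 0.45 ± 0.16 (adjusted p = 0.257). These A-KO R-Het and A-KO arrays overlapped.

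Six2 read 7.71, 7.60, 7.45 and 7.38 on R-Het arrays, against 6.96, 6.94, 7.01 and 7.18 on WT arrays. The groups did not overlap, and the gene rose 1.42-fold, by 0.51 ± 0.09 (limma adjusted p = 0.0421). The lowest R-Het array and the highest WT array lay closer together than those of Aard did. Without Axin2 the values were 7.44, 7.30, 7.45 and 7.33 in A-KO R-Het and 7.14, 7.14 and 7.16 in A-KO, again without overlap, a difference of 0.23 ± 0.09 (adjusted p = 0.347).

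Cldn10 read 7.71, 7.97, 8.04 and 7.60 on R-Het arrays, against 9.12, 8.60, 8.66 and 8.59 on WT arrays. WT replicate 1 was the highest of all, and the remaining WT arrays also lay above each R-Het array. The gene was 1.88-fold lower in R-Het (-0.91 ± 0.14, limma adjusted p = 0.0396). Of its 3 other probes, the pair above the array median on some arrays read -0.59 ± 0.12 and -0.55 ± 0.10, and the third, above it on 0 arrays, -0.08 ± 0.11. Without Axin2 the gene read 7.60, 7.66, 7.55 and 7.85 in A-KO R-Het and 7.64, 8.002 and 8.14 in A-KO, which overlapped, and the difference was -0.26 ± 0.15 (adjusted p = 0.582).

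Manba read 9.25, 9.20, 9.14 and 9.32 on R-Het arrays and 9.89, 9.69, 9.71 and 9.72 on WT arrays, with no overlap. It fell by 0.52 ± 0.09 (limma adjusted p = 0.0421), and its other probe read -0.54 ± 0.10. It was the single gene of the 5 that also passed the threshold in A-KO R-Het against A-KO, where it read 9.32, 8.996, 8.99 and 9.04 in A-KO R-Het and 9.70, 9.57 and 9.55 in A-KO (-0.52 ± 0.09, adjusted p = 0.0281). Tmem86a read 9.80, 9.87, 9.71 and 9.94 on R-Het arrays and 10.34, 10.26, 10.21 and 10.37 on WT arrays, also without overlap, and fell by 0.46 ± 0.07 (adjusted p = 0.0396). Without Axin2 it differed by -0.17 ± 0.08 (adjusted p = 0.455). The A-KO arrays, at 9.98, 9.96 and 9.92, lay below all WT arrays for this gene.

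**Figure D1:**
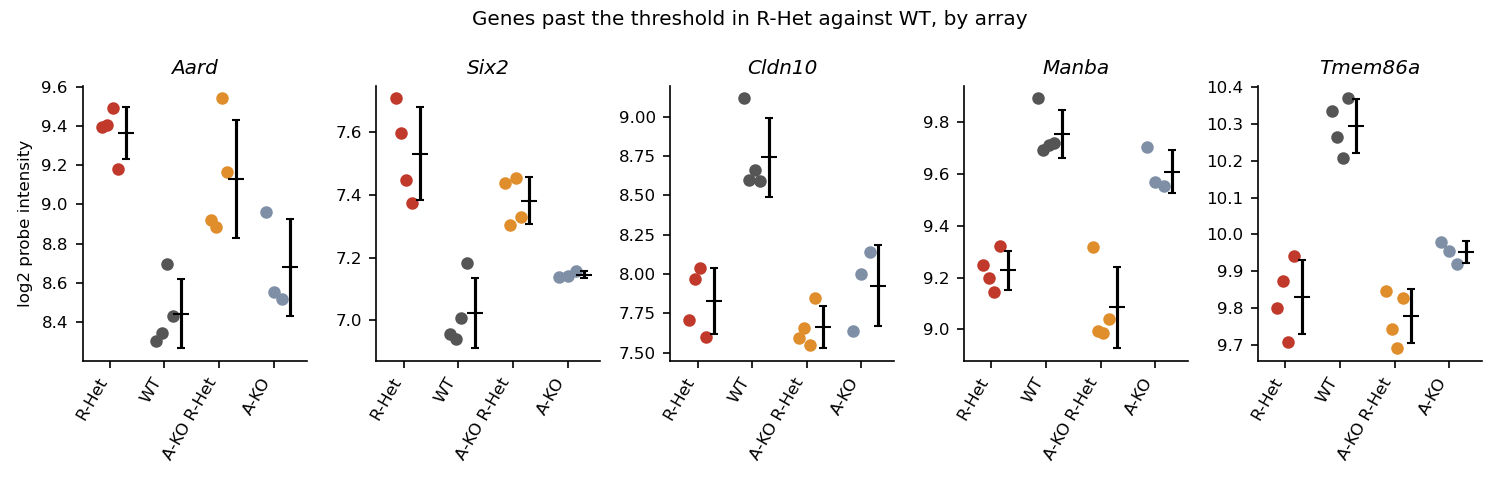
Log2 probe intensity (vertical axes, each with its own range) of the 5 genes past the threshold in R-Het against WT; points are arrays, and the bar is the mean ± SD of a genotype with 4, 4, 4 and 3 arrays. For each gene the R-Het and WT arrays do not overlap, and without Axin2 the groups overlap for Aard and Cldn10.

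All 5 differences kept their sign in 29 other settings of the fit, but the calls did not all hold. Aard stayed between 0.77 and 1.08 and passed the threshold in 16 of the 29, Cldn10 between -1.02 and -0.68 in 14, Tmem86a between -0.52 and -0.42 in 11, Manba between -0.57 and -0.48 in 10, and Six2 between 0.31 and 0.70 in 9. The count of 5 became 0 without R-Het replicate 1, 2 or 3, WT replicate 1 or 4, A-KO replicate 3 or 4, or replicate 2 or 4 of A-KO R-Het. Without replicate 3 of A-KO R-Het 1 gene was called, Aard, and without A-KO replicate 1 there were 2, Aard and Cldn10. Without WT replicate 2 the 1 gene called was Epyc, and 0 of the 5 passed. Without R-Het replicate 4 the count was 15, and all 5 were among them. It was 0 on each chip alone and 2 with the skeletal muscle mean as a covariate, Aard and Cldn10. When the 3 arrays with the most muscle signal were dropped it was 1, Adat2, a tRNA deaminase subunit outside the 5 that is named after its value was seen (-0.92, adjusted p = 0.00592).

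**Figure D2:**
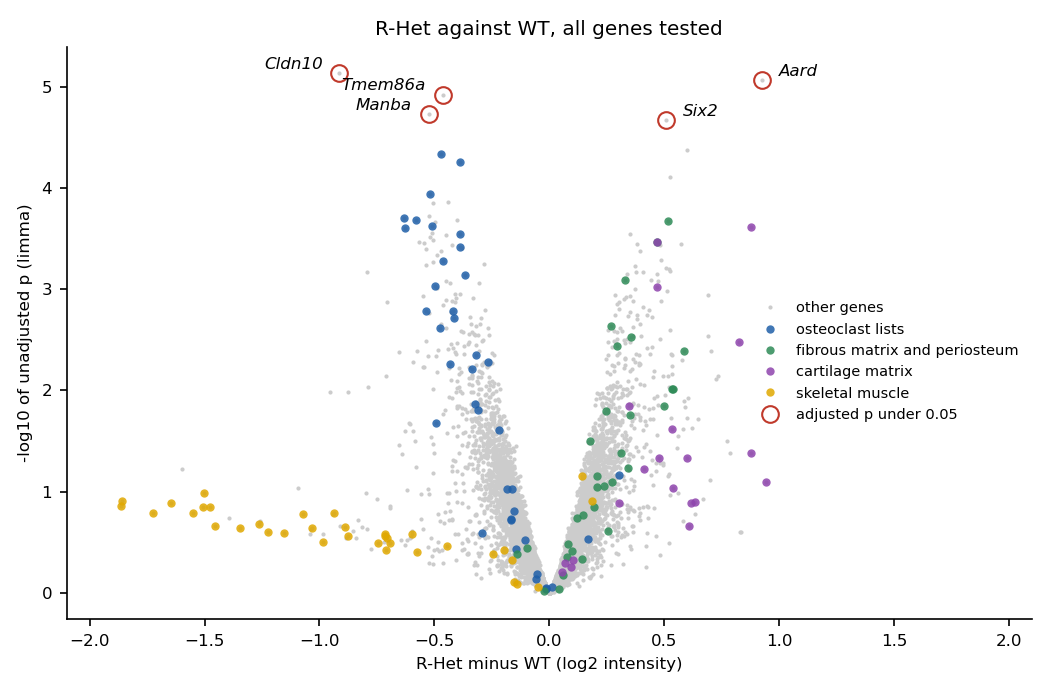
R-Het minus WT (log2 intensity, horizontal axis) against -log10 of the unadjusted limma p (vertical axis) for all 9918 genes, with 4 gene groups in colour and circles around the 5 genes past the adjusted threshold. Osteoclast genes lie to the left, fibrous and cartilage matrix genes to the right, and skeletal muscle genes spread far to the left at low -log10 p.

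The 15 genes of smallest p in each direction were next examined. On the lower side these were Cldn10, Tmem86a, Manba, Tcirg1, Atp6v1h, Ostm1, Glb1, Pip5k1b, Cd84, Dcstamp, Sipa1, Slc9b2, Nmb, Rab38 and Oscar. Osteoclast genes made up 7 of these 15, against 39 of the 9918 genes tested, and genes of the lysosomal list 2 of 15, against 21 of 9918. Both kinds of list were chosen with earlier results of these data known, so these shares are no independent evidence. On the higher side the 15 were Aard, Six2, Hs3st3a1, Sema3a, Thbs3, Epyc, Adamts8, Fmod, Baalc, C1qtnf4, Gfpt2, Mapk8ip1, Dkk3, Pitpnm2 and Mrgprf, and 0 of them belonged to an osteoclast list. Apart from the 5 called genes, their adjusted p ran from 0.0655 for Hs3st3a1 to 0.13 for Mrgprf, so each is given by value. In all, 500 genes (5.04%) had no overlap between the 4 R-Het and 4 WT arrays, 257 higher (2.59%) and 243 lower (2.45%).

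Hs3st3a1, a sulfotransferase that modifies heparan sulfate, read 9.02, 8.98, 8.99 and 8.85 on R-Het arrays, against 8.58, 8.11, 8.34 and 8.41 on WT arrays, a difference of 0.60 ± 0.11. Sema3a, a secreted guidance cue that in mice protects bone by acting on osteoblasts and osteoclasts, read 8.70, 8.77, 8.78 and 8.41 on R-Het and 8.01, 8.19, 8.04 and 8.33 on WT arrays (0.53 ± 0.10, adjusted p = 0.0859). Both had groups that did not overlap, and R-Het replicate 4 was the lowest R-Het array in both. Dkk3, a member of the Dickkopf family of secreted proteins, read 12.23, 12.36, 12.23 and 12.003 on R-Het arrays and 11.57, 11.71, 11.62 and 11.98 on WT arrays (0.48 ± 0.11, adjusted p = 0.125). Here R-Het replicate 4 lay just above WT replicate 4. Gfpt2, which makes the amino sugar precursor of glycans, was 0.48 ± 0.11 higher (adjusted p = 0.107) and rose in A-KO R-Het against A-KO (0.54 ± 0.12, adjusted p = 0.0471). Cd84, a receptor of leukocytes, read 8.44, 8.19, 8.17 and 8.53 on R-Het arrays and 8.98, 8.74, 8.73 and 8.96 on WT arrays (-0.52 ± 0.11, adjusted p = 0.107), without overlap. Nmb, the gene of the peptide neuromedin B, stood at -0.50 ± 0.10 and Sipa1, a GTPase-activating protein, at -0.40 ± 0.08 (adjusted p = 0.107 for both). Pip5k1b, a kinase that makes a phosphoinositide lipid, read 7.21, 6.99, 7.13 and 7.16 on R-Het arrays and 7.48, 7.73, 7.61 and 7.70 on WT arrays (-0.51 ± 0.10), and the genotypes were apart.

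Apart from Thbs3, Epyc and Fmod, which are given below with their lists, the remaining genes of the higher 15 had differences between 0.35 and 0.57. C1qtnf4, a secreted protein of the C1q and tumour necrosis factor family, read 7.88, 7.78, 7.85 and 8.04 on R-Het arrays and 7.06, 7.15, 7.39 and 7.65 on WT arrays. Adamts8, a secreted metalloproteinase, read 6.94, 7.10, 7.04 and 7.02 on R-Het arrays and 6.61, 6.77, 6.61 and 6.71 on WT arrays. Baalc, a gene of neural and progenitor cells, read 7.03, 7.10, 7.09 and 6.96 on R-Het arrays and 6.57, 6.53, 6.80 and 6.74 on WT arrays. R-Het arrays lay above all WT arrays in each of these. Baalc's other probe, above the array median on 5 arrays, read 0.10 ± 0.10. Without Axin2, Baalc stood at -0.15 ± 0.09, so its sign was not the same there. Mapk8ip1, a scaffold of the JNK kinases, stood at 0.40 ± 0.09 (0.25 ± 0.11 on its other probe), Pitpnm2, a lipid transfer protein, at 0.37 ± 0.09, and Mrgprf, an orphan receptor, at 0.51 ± 0.12.

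Because RUNX proteins bind the core motif TGTGGT, the 250 bases before the annotated start were searched for it on both strands, which on the printed strand reads ACCACA when the motif lies on the other. A window was at hand for 19 of the 30 genes named above, and 5 of these 19 (26.3%) held the motif, against 1061 of 8009 genes tested that had a window (13.2%) and 4614 of 32851 windows in the whole promoter table (14.0%). Among the 5 called genes it was 1 of 4, Tmem86a. In both osteoclast lists together it was 2 of 26 (7.69%), in fibrous matrix genes 2 of 22 (9.09%), in cartilage matrix genes 3 of 17 (17.6%), in bone matrix genes 4 of 22 (18.2%), and among genes without overlap 12.2% of the lower and 14.5% of the higher ones. A match is a string of letters and not a shown binding site, and a window without it says only that these letters are not there. The 5 windows that hold it are shown to place the motif, in capitals, relative to the start. The sequences are from RefSeq, build GRCm38.p6, each 5′ to 3′ along the gene:
Tmem86a, chr7:47050390-47050639, plus strand: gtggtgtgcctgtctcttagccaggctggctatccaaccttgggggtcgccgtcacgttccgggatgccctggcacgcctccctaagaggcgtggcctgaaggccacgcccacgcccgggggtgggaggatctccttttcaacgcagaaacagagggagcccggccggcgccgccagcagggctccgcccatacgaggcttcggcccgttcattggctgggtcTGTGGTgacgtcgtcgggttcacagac
Glb1, chr9:114400828-114401077, plus strand: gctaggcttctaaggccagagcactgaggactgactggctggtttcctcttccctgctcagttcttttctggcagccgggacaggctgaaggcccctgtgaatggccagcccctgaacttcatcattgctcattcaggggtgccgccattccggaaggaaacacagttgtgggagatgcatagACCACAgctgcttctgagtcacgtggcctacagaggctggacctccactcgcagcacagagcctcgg
Cd84, chr1:171839447-171839696, plus strand: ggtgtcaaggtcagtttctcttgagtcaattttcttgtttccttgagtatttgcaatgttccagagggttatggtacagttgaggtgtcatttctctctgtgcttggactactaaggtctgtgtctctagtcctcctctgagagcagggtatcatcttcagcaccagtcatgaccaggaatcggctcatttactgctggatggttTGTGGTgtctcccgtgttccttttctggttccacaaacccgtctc
Nmb, chr7:80905063-80905312, minus strand: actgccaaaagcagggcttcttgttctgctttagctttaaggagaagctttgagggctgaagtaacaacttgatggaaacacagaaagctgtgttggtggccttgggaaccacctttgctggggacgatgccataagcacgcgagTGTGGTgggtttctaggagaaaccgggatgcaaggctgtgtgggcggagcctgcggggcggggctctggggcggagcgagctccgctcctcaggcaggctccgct
Sema3a, chr5:13396534-13396783, plus strand: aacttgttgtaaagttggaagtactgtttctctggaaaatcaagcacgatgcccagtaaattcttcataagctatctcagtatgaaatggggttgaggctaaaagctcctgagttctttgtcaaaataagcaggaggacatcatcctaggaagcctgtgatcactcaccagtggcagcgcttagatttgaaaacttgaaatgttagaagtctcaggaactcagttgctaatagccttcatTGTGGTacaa

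The first base of the motif lay 27 bases before the start in Tmem86a, 67 in Glb1, 45 in Cd84, 105 in Nmb and 10 in Sema3a. The first 4 of these genes were lower in R-Het and Sema3a was higher. Glb1 held it on the opposite strand.

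Osteoclast genes stood lower in R-Het as a group without a single member past the adjusted threshold. Of the 21 tested genes for acid secretion and resorption all 21 were lower, with a median of -0.37, against 0.0042 over all 9918 genes. At an unadjusted p under 0.05 were 16 lower and 0 higher, against 4.62% of all genes in each direction, and 11 of the 21 had no overlap, against 2.45% lower among all genes. The mean of this list was -0.018, -0.07, -0.19 and -0.15 on R-Het arrays and 0.33, 0.21, 0.19 and 0.22 on WT arrays, with every R-Het array below every WT array. Its median ran from -0.40 to -0.30 over the 29 settings, and was -0.39 on chip 1 alone and -0.34 on chip 2 alone. The list was drawn up with its direction known from earlier results of these data, so its count is no independent evidence.

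The V-ATPase, the proton pump that acidifies the resorption space under an osteoclast, was the largest part of this list. All 9 of its tested subunits in the list were lower, with a median of -0.39 and a range of -0.47 to -0.16. Of the 9, 6 had no overlap, against 2.45% lower among all genes. Over every tested gene named as a V-ATPase subunit, 17 of 21 were lower, with a median of -0.28. In this wider set 8 lower and 1 higher had no overlap (2.45% and 2.59% of all genes). Tcirg1, the osteoclast form of the membrane subunit, read 10.29, 10.08, 10.06 and 10.11 on R-Het arrays and 10.60, 10.79, 10.46 and 10.59 on WT arrays (-0.47 ± 0.09, limma adjusted p = 0.0655). No arrays overlapped, and its 3 other probes read -0.42 ± 0.10, -0.35 ± 0.11 and -0.42 ± 0.10. The gene fell in A-KO R-Het against A-KO (-0.46 ± 0.09, adjusted p = 0.0405). Atp6v1h, a cytosolic regulatory subunit of the pump, read 10.78, 10.82, 10.69 and 10.78 on R-Het arrays and 11.28, 11.15, 11.03 and 11.16 on WT arrays (-0.39 ± 0.07, adjusted p = 0.0689). It differed by -0.21 ± 0.08 without Axin2.

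Ostm1, the beta subunit of the lysosomal chloride-proton exchanger that in mice and people causes osteopetrosis when lost, read 10.18, 10.17, 9.82 and 10.10 on R-Het arrays and 10.71, 10.68, 10.45 and 10.48 on WT arrays (-0.52 ± 0.10, adjusted p = 0.107). Slc9b2, a sodium-proton exchanger that osteoclasts switch on as they form, read 10.99, 10.71, 10.38 and 10.57 on R-Het arrays and 11.46, 11.12, 11.13 and 11.27 on WT arrays (-0.58 ± 0.12, adjusted p = 0.107). Neither gene had overlapping arrays, and R-Het replicate 3 was the lowest in both. Acp5, the tartrate-resistant acid phosphatase used to stain osteoclasts, read 8.90, 8.61, 8.36 and 8.50 on R-Het arrays and 9.30, 9.18, 8.97 and 8.89 on WT arrays (-0.50 ± 0.12, adjusted p = 0.15). R-Het replicate 1 reached just above WT replicate 4, and the other R-Het arrays lay below all WT arrays. Mmp9, a gelatinase made by osteoclasts, stood at -0.32 ± 0.12 (adjusted p = 0.391). Ctsk, the collagen-cleaving protease of osteoclasts that periosteal and suture cells also make, was among the brightest genes and read 14.40, 14.28, 14.44 and 14.25 on R-Het and 14.37, 13.88, 14.68 and 14.50 on WT arrays, a difference of -0.016 ± 0.13 (adjusted p = 0.988). The WT arrays spread on both sides of the R-Het arrays. Among the members picked after their values were seen, Snx10, a sorting nexin whose loss gives osteopetrosis in people and mice, stood at -0.43 ± 0.13, Slc4a2, the anion exchanger that offsets proton loss, at -0.34 ± 0.11, and Plekhm1, a lysosome adaptor, at -0.31 ± 0.11. Car2, the carbonic anhydrase that supplies protons, stood at -0.29 ± 0.25 and Clcn7, the chloride-proton exchanger to which Ostm1 belongs, at -0.11 ± 0.10. The standard error of Car2 was nearly as large as its difference.

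Genes for the formation and signalling of osteoclasts were mostly lower. Of 18 tested, 15 were lower and 3 higher, with a median of -0.17, 8 lower and 0 higher at an unadjusted p under 0.05 (4.62% of all genes in each direction), and 5 lower without overlap (2.45% of all genes). Dcstamp, the fusion receptor that joins precursors into one multinucleate cell, read 8.60, 8.54, 8.26 and 8.32 on R-Het arrays and 9.05, 9.36, 8.66 and 9.18 on WT arrays (-0.63 ± 0.13, adjusted p = 0.107). Oscar, a collagen receptor that costimulates osteoclasts, read 9.34, 9.28, 8.80 and 9.05 on R-Het arrays and 9.69, 10.06, 9.49 and 9.74 on WT arrays (-0.63 ± 0.13, adjusted p = 0.107), and fell in A-KO R-Het against A-KO (-0.72 ± 0.14, adjusted p = 0.0394). Both had R-Het arrays wholly below the WT arrays. Without WT replicate 3, the lowest WT array in both, Dcstamp passed the threshold (-0.77, adjusted p = 0.0408). Rab38, a GTPase of lysosome-related organelles, stood at -0.51 ± 0.11 and Src, the kinase osteoclasts need for their ruffled border, at -0.39 ± 0.09 (adjusted p = 0.107 for both). Src's other probe, above the array median on 3 arrays, had the opposite sign, 0.24 ± 0.12, and the mean of both probes gave -0.07. On the brighter probe Src differed by 0.04 ± 0.09 without Axin2.

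The ligand and its receptors belong here too. Tnfsf11, which encodes RANKL, the signal from osteoblast-lineage cells that osteoclast precursors need, read 7.62, 8.02, 7.63 and 7.46 on R-Het arrays and 8.33, 8.52, 7.95 and 8.06 on WT arrays (-0.54 ± 0.14, adjusted p = 0.18). R-Het replicate 2 lay above WT replicate 3, and the other R-Het arrays were below all WT arrays. Tnfrsf11b, the decoy receptor osteoprotegerin, read 8.31, 8.53, 8.25 and 8.12 on R-Het and 8.25, 8.22, 8.25 and 8.40 on WT arrays, a difference of 0.024 ± 0.14. Tnfrsf11a, the receptor RANK, stood at -0.49 ± 0.19, and Nfatc1, the transcription factor RANK turns on, at 0.30 ± 0.15, on the other side of 0 from most of the list (adjusted p = 0.432 and 0.581, both picked after their values were seen). Csf1, the growth factor of the monocyte lineage, stood at -0.22 ± 0.09, and at -0.14 without the 3 arrays highest in muscle genes. Genes of macrophages and monocytes, which share precursors with osteoclasts, had a median of -0.10 over 18 tested. Of these, 1 was lower and 0 higher at an unadjusted p under 0.05 (4.62% of all genes in each direction). The median was -0.25 without the 3 arrays highest in muscle genes, -0.18 on chip 1 alone and -0.023 on chip 2 alone. The part of such cells in the osteoclast values was not tested.

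**Figure D3:**
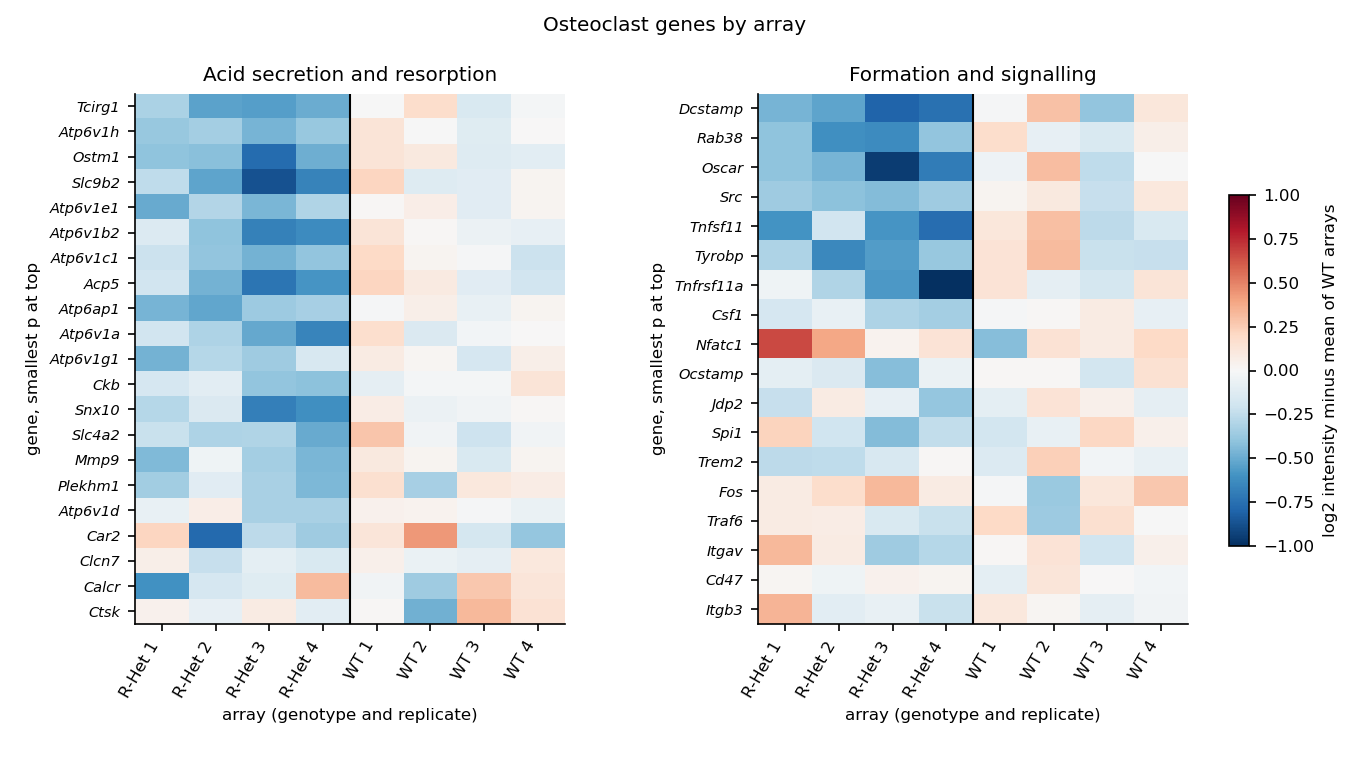
Log2 intensity of each tested osteoclast gene on each R-Het array (left of the line) and WT array (right of it), minus the mean of the WT arrays for that gene, from blue (lower) through white to red (higher), with genes ordered by p. The R-Het columns are mostly blue in the left panel, where all 21 genes are lower on average, and in the upper rows of the right panel, while Ctsk, Calcr, Fos, Itgav and Itgb3 show no such split.

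Genes of the lysosome, the organelle whose contents osteoclasts secrete and which every cell uses to break down glycans, were lower in part. Most encode enzymes, but the list also held the membrane proteins Lamp1 and Lamp2 and the activator proteins Psap and Gm2a. Of 21 tested, 16 were lower and 5 higher, with a median of -0.18. As this list was chosen with earlier results of these data known, its counts are no independent evidence. At an unadjusted p under 0.05 were 7 lower and 1 higher (4.62% of all genes in each direction), and 5 lower and 1 higher had no overlap (2.45% and 2.59% of all genes). The 1 higher was Lamp2 in both counts (0.17 ± 0.08). Besides Manba, Glb1, the beta-galactosidase, read 10.81, 10.69, 10.68 and 10.54 on R-Het arrays and 11.10, 11.08, 11.12 and 11.19 on WT arrays (-0.44 ± 0.09, adjusted p = 0.107). Hexa, the alpha subunit of beta-hexosaminidase, read 10.92, 10.87, 10.80 and 10.82 on R-Het arrays and 11.40, 11.26, 11.27 and 11.12 on WT arrays (-0.41 ± 0.10, adjusted p = 0.16). Arsb, the sulfatase of dermatan and chondroitin sulfate, read 11.52, 11.47, 10.89 and 11.01 on R-Het arrays and 12.20, 12.20, 11.78 and 11.55 on WT arrays (-0.71 ± 0.18, adjusted p = 0.16). Arrays of these 3 genes did not overlap between genotypes on the probes used. Arsb's other probe, above the array median on 13 arrays, read -0.07 ± 0.14, and the mean of both probes gave -0.39. On the brighter probe Arsb was lower on chip 2 than on chip 1 in both genotypes, and with chip as a block in the fit it passed the threshold (adjusted p = 0.0183), as did Tcirg1 (0.0307) and Oscar (0.0330). The list mean was -0.047 ± 0.07 in R-Het and 0.12 ± 0.014 in WT (log2 relative to 15 arrays, SD, n = 4 each), with all R-Het arrays below all WT arrays.

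Bone matrix genes of osteoblasts, the cells in which Runx2 acts most directly, had a median close to 0. Of 31 tested, 18 were higher and 13 lower, with a median of 0.024, 0 past the adjusted threshold, 1 higher and 2 lower at an unadjusted p under 0.05 (4.62% of all genes in each direction), and 1 lower without overlap (2.45%). The sign of this median turned in 5 of the 29 settings, with a range of -0.07 to 0.10. Col1a1, the main collagen of bone, read 14.35, 14.04, 14.31 and 14.38 on R-Het and 14.20, 13.99, 14.55 and 14.32 on WT arrays, a difference of 0.0028 ± 0.12. Bglap, the gene of osteocalcin and a classical RUNX2 target in cell culture, differed by 0.07 ± 0.12, and Alpl, the alkaline phosphatase of mineralizing cells, by 0.011 ± 0.13. Differences no larger than these standard errors could not be told from 0.

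Ibsp, the gene of bone sialoprotein, was uneven. It read 14.15, 12.69, 12.55 and 13.43 on R-Het arrays and 14.10, 13.36, 13.95 and 13.73 on WT arrays (-0.58 ± 0.28, adjusted p = 0.555). Its other probe read -0.38 ± 0.24. R-Het replicate 1 was the highest of all 8 arrays on the brighter probe, and R-Het replicates 2 and 3 were the lowest. Ank, which carries pyrophosphate out of the cell and restrains mineralization, stood at -0.32 ± 0.09 (adjusted p = 0.212) and Ifitm5, a membrane protein of mineralizing osteoblasts, at -0.28 ± 0.10 (adjusted p = 0.358). Both fell in A-KO R-Het against A-KO (-0.50 ± 0.10, adjusted p = 0.036, and -0.49 ± 0.10, adjusted p = 0.0473). Mmp13, a collagenase regulated by Runx2 in mice, differed by -0.20 ± 0.11 on its brightest probe. Its 2 other probes, above the array median on all 15 arrays, read -0.48 ± 0.19 and -0.48 ± 0.15, and the mean of the probes gave -0.39. Vegfa, an angiogenic factor, differed by -0.019 ± 0.13. The osteocyte list of 13 genes had a median of -0.033 (0.037 without the 3 arrays highest in muscle genes) and the marker Dmp1 a difference of -0.07 ± 0.20.

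Transcription factors of the osteoblast lineage were measured in 23 genes, 14 higher and 9 lower, with a median of 0.05 (-0.028 on chip 2 alone). At an unadjusted p under 0.05 were 2 genes in each direction, against 4.62% of all genes in each direction. Cbfb, the partner that RUNX proteins need to bind DNA firmly, differed by 0.05 ± 0.09, and Sp7, the factor downstream of Runx2 in osteoblast commitment, by -0.08 ± 0.14. Dlx3, a homeobox gene of differentiating osteoblasts, read 9.06, 9.21, 9.42 and 9.18 on R-Het arrays and 9.96, 9.54, 9.62 and 9.70 on WT arrays (-0.48 ± 0.14, adjusted p = 0.25). Hey1, a target of Notch and BMP signalling, read 9.57, 10.08, 9.93 and 9.96 on R-Het arrays and 10.13, 10.18, 10.59 and 10.39 on WT arrays (-0.44 ± 0.15, adjusted p = 0.368). In both the groups did not overlap, with R-Het lower. Twist2, a bHLH factor that restrains osteoblast differentiation, stood at 0.36 ± 0.14, and Zfp521, another repressor of osteoblast maturation, at 0.20 ± 0.09.

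Genes of fibrous matrix and periosteum, the connective tissue sheet that covers the bone and fills the sutures, stood higher in R-Het. Of 32 tested, 29 were higher and 3 lower, with a median of 0.24, and 0 passed the adjusted threshold. At an unadjusted p under 0.05 were 14 higher and 0 lower, against 4.62% of all genes in each direction, and 9 had no overlap, against 2.59% higher among all genes. List means were 0.11, 0.034, 0.12 and 0.16 on R-Het arrays and -0.14, -0.18, -0.17 and -0.06 on WT arrays, and no arrays overlapped. The median ran from 0.20 to 0.27 over the 29 settings and was 0.26 on chip 1 alone and 0.27 on chip 2 alone. This list, like that of osteoclasts, was drawn up with its direction known. All other lists were also chosen with earlier results of these data known.

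Thbs3, a pentameric thrombospondin of connective tissue, read 9.98, 9.63, 9.73 and 9.65 on R-Het arrays and 9.17, 9.21, 9.07 and 9.46 on WT arrays (0.52 ± 0.11, adjusted p = 0.107). Its 2 other probes read 0.29 ± 0.10 and 0.16 ± 0.14. Fmod, a small proteoglycan that binds collagen fibrils and is counted in the cartilage list too, read 10.85, 10.85, 10.68 and 10.66 on R-Het arrays and 10.35, 10.37, 10.18 and 10.26 on WT arrays (0.47 ± 0.10, adjusted p = 0.107). It rose in A-KO R-Het against A-KO (0.52 ± 0.11, adjusted p = 0.0471), whereas Thbs3 stood at 0.13 ± 0.12 there. Thbs2, a further thrombospondin that shapes collagen fibrils, read 13.34, 13.38, 13.32 and 13.36 on R-Het arrays and 12.998, 12.96, 12.97 and 13.17 on WT arrays (0.33 ± 0.08, adjusted p = 0.139). Col6a1, a chain of the collagen around cells, stood at 0.27 ± 0.07 (adjusted p = 0.212). Sfrp2, a secreted Wnt modulator of fibroblasts that was counted in this list, read 12.36, 12.40, 12.76 and 12.18 on R-Het arrays and 11.90, 11.89, 11.82 and 11.93 on WT arrays (0.54 ± 0.18, adjusted p = 0.345). None of these 5 genes had overlapping arrays on the probe used.

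Genes of sutures and cranial mesenchyme were measured in 26 cases, and Six2 was the 1 that passed the threshold. Of the 26, 16 were higher and 10 lower, with a median of 0.04, 6 higher and 0 lower at an unadjusted p under 0.05 (4.62% of all genes in each direction), and 3 higher without overlap (2.59%). The median was 0.10 on chip 1 alone. Gsc, the homeobox gene goosecoid of head mesenchyme, read 8.57, 8.27, 8.56 and 8.14 on R-Het arrays and 7.64, 7.70, 7.83 and 8.07 on WT arrays (0.58 ± 0.18, adjusted p = 0.273), without overlap, and differed by 0.044 ± 0.19 without Axin2. Axin2, a marker of suture stem cells and intact in these mice, read 8.09, 7.91, 7.90 and 7.97 on R-Het arrays and 7.61, 7.42, 7.77 and 7.88 on WT arrays (0.29 ± 0.11, adjusted p = 0.432), with the groups just apart. Ptn, the growth factor pleiotrophin, stood at 0.44 ± 0.17 (0.22 without the 3 arrays highest in muscle genes) and Foxd1, a forkhead factor, at 0.24 ± 0.11.

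Cartilage matrix genes stood higher in R-Het by the highest median of the 44 lists examined, although the spread on WT arrays was wide. All 20 tested were higher, with a median of 0.50, and 0 passed the adjusted threshold. This list too was chosen with earlier results of these data known, so its count is no independent evidence. At an unadjusted p under 0.05 were 9 higher and 0 lower (4.62% of all genes in each direction), and 4 higher had no overlap (2.59%). List means were 0.30, 0.13, 0.28 and 0.09 on R-Het arrays and -0.30, 0.016, -0.72 and -0.17 on WT arrays, where WT replicate 3 lay far below the rest. Without the 3 arrays highest in muscle genes, WT replicate 3 among them, the median was 0.29, and it was 0.36 on chip 1 alone and 0.53 on chip 2 alone. The amount of cartilage carried along in each dissection was not measured, and its part in these values was not tested.

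Epyc, a small proteoglycan of growth cartilage, read 7.65, 7.54, 7.94 and 7.91 on R-Het arrays and 6.48, 7.61, 6.59 and 6.86 on WT arrays (0.88 ± 0.19, adjusted p = 0.107). WT replicate 2 lay within the R-Het range, and without it Epyc passed the threshold (1.12, adjusted p = 0.00223). With the 3 muscle-high arrays dropped the difference was 0.48. Matn4, a matrilin of cartilage and other matrices, read 12.43, 12.75, 12.94 and 12.42 on R-Het arrays and 12.16, 12.07, 12.21 and 12.23 on WT arrays (0.47 ± 0.12, adjusted p = 0.15), and its 2 other probes read 0.68 ± 0.15 and 0.84 ± 0.17. Mia, a protein secreted by chondrocytes, read 10.19, 10.13, 10.20 and 10.03 on R-Het arrays and 9.46, 9.71, 8.58 and 9.49 on WT arrays (0.83 ± 0.24, adjusted p = 0.232). Both had R-Het arrays wholly above WT arrays on the probe used. Col2a1, the main collagen of cartilage, read 13.22, 13.02, 12.79 and 13.03 on R-Het arrays and 12.30, 13.09, 10.83 and 12.32 on WT arrays (0.88 ± 0.40, adjusted p = 0.517), so that the R-Het arrays were close together while the WT arrays were wide apart, and the difference was 0.30 without the 3 arrays highest in muscle genes. Acan, the aggregating proteoglycan of cartilage, stood at 0.60 ± 0.28, and at 0.37 without those arrays. Sox9, a transcription factor of chondrocytes, stood at 0.35 ± 0.16, and at 0.18 without them. Sox5, its partner, stood at 0.50 ± 0.17, with 0.29 ± 0.15 on its next brightest probe, and the 6 factors of that list had a median of 0.17.

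**Figure D4:**
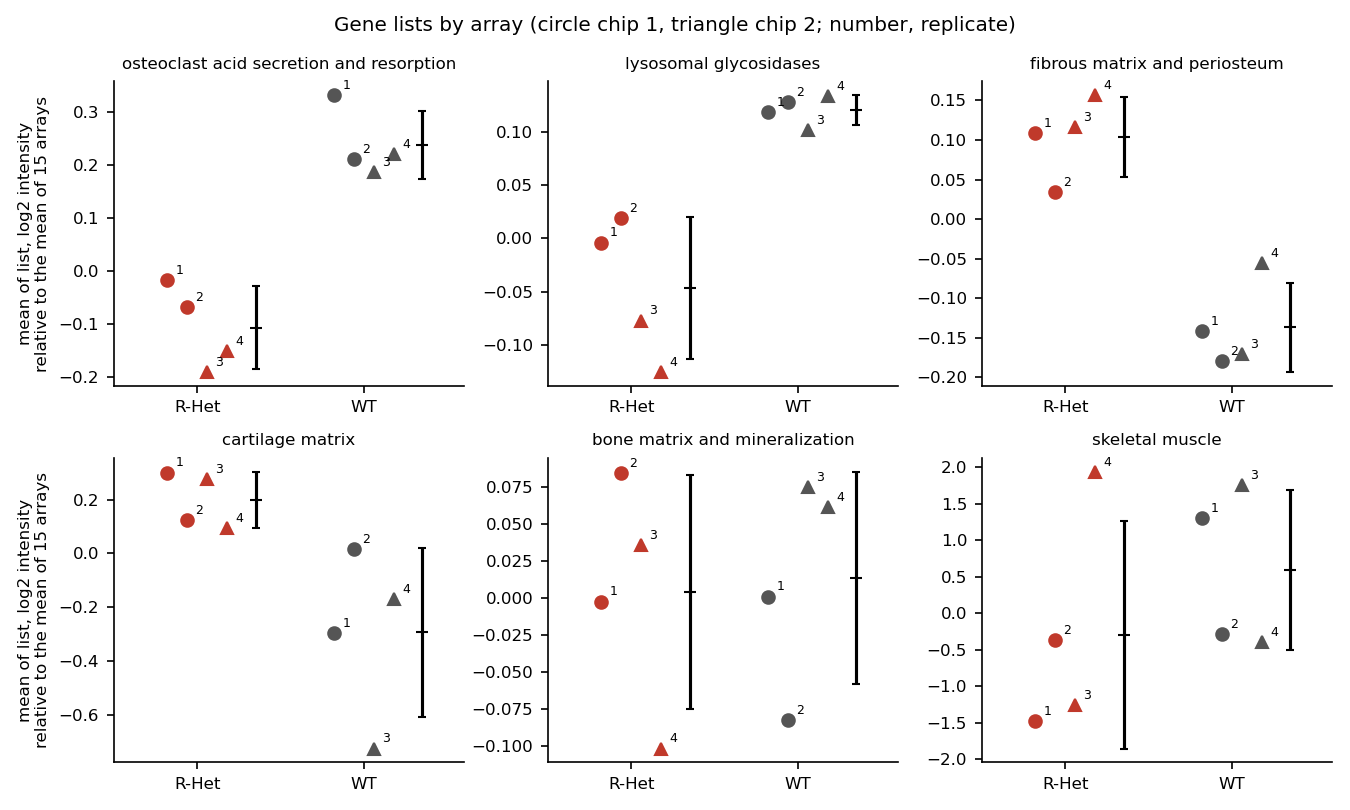
Mean of each gene list on each R-Het and WT array (log2 intensity, each gene relative to its mean over 15 arrays), with the mean ± SD of 4 arrays beside the points, circles for chip 1, triangles for chip 2 and the replicate number at each point. R-Het arrays lie below all WT arrays for osteoclast resorption and lysosomal genes and above them for fibrous and cartilage matrix genes, and the genotypes overlap for bone matrix and skeletal muscle genes.

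No gene of the signalling pathways of the skull passed the adjusted threshold, and the counts below at an unadjusted p under 0.05 stand against 4.62% of all genes in each direction. Of 13 Wnt targets and feedback genes, 3 were higher and 1 lower at an unadjusted p under 0.05, with a median of -0.017 that changed sign in 8 of the 29 settings. Lgr5, a receptor that marks stem cells and strengthens Wnt signals, read 7.83, 6.99, 7.12 and 6.63 on R-Het arrays and 6.40, 6.34, 6.60 and 6.31 on WT arrays (0.73 ± 0.24, adjusted p = 0.311). Every R-Het array was higher, R-Het replicate 1 by the most. Of 28 Wnt ligands, receptors and antagonists, 4 were higher and 0 lower at an unadjusted p under 0.05, Dkk3, Sfrp2, Ror2 (0.32 ± 0.11) and Fzd2 (0.47 ± 0.17), with a median of 0.07. Of 15 FGF pathway genes, 3 were higher and 0 lower, with a median of 0.11 that was -0.011 on chip 2 alone. Fgf10 read 6.96, 7.22, 7.15 and 7.13 on R-Het arrays and 6.83, 6.64, 6.56 and 6.81 on WT arrays (0.41 ± 0.10, adjusted p = 0.13), and Fgf7 read 8.81, 8.89, 8.79 and 8.62 on R-Het arrays and 8.53, 8.40, 8.28 and 8.19 on WT arrays (0.43 ± 0.13, adjusted p = 0.243). Both are mesenchymal ligands for an epithelial form of the FGF receptor, and neither had overlapping arrays.

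Of 32 BMP and TGF-beta genes, 5 were higher and 1 lower at an unadjusted p under 0.05, with a median of 0.10 that was -0.028 on chip 2 alone and 0.24 with the 3 muscle-high arrays dropped. Gdf10, a growth factor of that family, read 12.02, 12.80, 12.52 and 12.17 on R-Het arrays and 11.69, 11.93, 12.25 and 11.83 on WT arrays (0.45 ± 0.17, adjusted p = 0.425), and Tgfbr1, a receptor kinase, stood at -0.26 ± 0.09. Igfbp2, an IGF-binding protein, stood at 0.59 ± 0.21 among 13 IGF genes, of which 2 were higher and 0 lower at an unadjusted p under 0.05. Of 8 hedgehog genes, Hhip, which binds hedgehog ligands, was the 1 at an unadjusted p under 0.05 (0.28 ± 0.12).

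Proteoglycan chain synthesis genes had a median of 0.05 over 20 tested, with 2 higher and 0 lower at an unadjusted p under 0.05, and metalloproteinases and their inhibitors a median of 0.00098 over 17, with 1 in each direction. Collagen genes as a family, 29 tested, had a median of 0.12, with 21 higher and 8 lower and 5 higher at an unadjusted p under 0.05. Claudin and tight junction genes had a median of 0.030 over 12 tested, and Cldn10 was the 1 past the adjusted threshold. Plasmalogen and ether lipid genes had a median of -0.039 over 10 tested, and Tmem86a was the 1 past that threshold. Cldn10 and Tmem86a were also each the sole member of their list at an unadjusted p under 0.05. Cell cycle genes stood at a median of 0.05 over 29, ribosomal proteins at 0.021 over 21, and hypoxia and glycolysis genes at 0.0090 over 20, with at most 2 genes of a list at an unadjusted p under 0.05. Immediate early genes had a median of 0.17 over 24 tested, 21 higher, with 1 higher at an unadjusted p under 0.05, and one of 0.28 without R-Het replicate 4. The cell cycle, ribosomal, hypoxia, metalloproteinase, claudin and plasmalogen medians had opposite signs on chip 1 alone and chip 2 alone. Proteoglycan chain synthesis genes stood at 0.08 without the 3 arrays highest in muscle genes.

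Genes of other cells in the calvaria were counted beside those of bone. Skeletal muscle genes had the lowest median, -0.88 over 36 tested, with 34 lower and 2 higher. Yet 0 were at an unadjusted p under 0.05 (4.62% of all genes in each direction). The 1 without overlap was Tpm2, higher at 0.18 ± 0.11 on the probe used (2.59% higher among all genes). Another Tpm2 probe, above the array median on all 15 arrays, had the opposite sign, -1.51 ± 1.13. Its dimmest probe, above the median on 4 arrays, read 0.031 ± 0.21. Acta1, the actin of skeletal muscle, read 9.81, 12.59, 10.20 and 14.28 on R-Het arrays and 14.02, 12.22, 14.59 and 12.09 on WT arrays (-1.51 ± 0.97, adjusted p = 0.683). R-Het replicate 4 and WT replicates 1 and 3 were the 3 highest. Without R-Het replicate 4 the muscle median was -1.62, without all 3 of these arrays -0.65, and it was -1.53 on chip 1 alone and -0.33 on chip 2 alone. With the muscle mean itself as a covariate it was 0.038. All 21 genes with a difference over 2-fold were lower in R-Het, 15 of them of the muscle list, and 0 of the 21 passed the threshold. Mitochondrial respiration genes had a median of -0.21 over 41 tested, with 8 lower and 0 higher at an unadjusted p under 0.05 and 0 without overlap. This median was -0.41 on chip 1 alone, -0.026 on chip 2 alone, -0.34 without R-Het replicate 4 and -0.12 with the muscle mean as a covariate. Their list mean ran with that of muscle over the 15 arrays (r = 0.91, a description over arrays that share genotypes).

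Endothelial genes had a median of -0.14 over 24 tested, 5 lower and 1 higher at an unadjusted p under 0.05, and of -0.23 without R-Het replicate 4. Aplnr, the apelin receptor, read 8.39, 8.51, 8.52 and 9.16 on R-Het arrays and 9.23, 9.09, 9.04 and 9.30 on WT arrays (-0.52 ± 0.14, adjusted p = 0.181), and Ramp2, a partner of the adrenomedullin receptor, read 11.09, 11.37, 11.05 and 11.32 on R-Het arrays and 10.93, 10.88, 10.90 and 10.76 on WT arrays (0.34 ± 0.09, adjusted p = 0.186). The genotypes overlapped for Aplnr and not for Ramp2, and the differences had opposite signs. Without R-Het replicate 4, the highest R-Het array for Aplnr, that gene passed the threshold (-0.69, adjusted p = 0.0190). Blood lineages had medians of -0.10 for erythroid, -0.10 for neutrophil, -0.09 for B cell and 0.05 for megakaryocyte genes, with at most 2 genes of a list at an unadjusted p under 0.05. These medians were not steady: B cell genes stood at 0.08 and neutrophil genes at -0.17 without the 3 arrays highest in muscle genes, erythroid genes at -0.013 without R-Het replicate 4, megakaryocyte genes at 0.16 on chip 2 alone, and neutrophil genes at -0.30 on chip 1 alone and 0.027 on chip 2 alone. Interferon response genes stood at -0.07 over 20 tested (-0.28 without those 3 arrays), adipocyte genes at -0.09 over 13 (0.06 on chip 2 alone), and smooth muscle and pericyte genes at 0.07 over 14 (-0.015 on chip 1 alone). Meningeal genes that passed the filter had a median of 0.016 over 22 tested (-0.024 without the 3 arrays), 3 higher at an unadjusted p under 0.05. Genes of the unfolded protein response and secretory pathway had a median of 0.17 over 25 tested, 21 higher, 1 of them at an unadjusted p under 0.05, and one of 0.08 on chip 2 alone. Those of cholesterol and fatty acid synthesis stood at 0.19 over 19 tested, with 3 higher and 0 lower, and at 0.020 without the 3 arrays highest in muscle genes. Gal, the neuropeptide galanin, a gene of the brain and nerve list, read 8.45, 8.96, 8.94 and 8.31 on R-Het arrays and 9.37, 9.30, 9.71 and 9.46 on WT arrays (-0.79 ± 0.19, adjusted p = 0.13), with no overlap.

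For loss of the same allele without Axin2, in A-KO R-Het against A-KO, the differences used none of the R-Het and WT arrays. Their standard errors and p did, through the spread shared over all 15 arrays. There 55 genes (0.555%) passed the threshold, 35 higher (0.353%) and 20 lower (0.202%), and 1135 (11.4%) had no overlap. With 4 against 3 arrays, groups stay apart by chance more often than with 4 against 4. The 11.4% is therefore not comparable with the 5.04% in R-Het against WT. The count of 55 dropped to 1 when A-KO replicate 3 was left out. It was 85 without R-Het replicate 4, which acts only through the shared spread. All 5 genes called in R-Het against WT had the same sign there, 4 of them at an unadjusted p under 0.05. Over all genes 10.8% were at that level there, in either direction. Of the 15 lower genes of smallest p, 15 had the same sign, and of the 15 higher, 13. Of the 916 genes at an unadjusted p under 0.05 in R-Het against WT, 669 (73.0%) had the same sign, against 54.1% of the other genes. Across these 916 genes the differences correlated with r = 0.63, and across all 9918 with r = 0.31, as a description over genes that share libraries.

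The test of the difference between the effects, A-KO R-Het minus A-KO less R-Het minus WT, called 0 genes in limma, with 611 (6.16%) at an unadjusted p under 0.05 and 1 gene, Vpreb1, called without R-Het replicate 3. A difference in the effect of the allele between the backgrounds was thus not shown for any gene over all 15 arrays. Cartilage genes had medians of 0.50 with Axin2 and 1.16 without it. Mia differed by 1.98 ± 0.26 without Axin2 and Col2a1 by 2.15 ± 0.43, both past the threshold there (adjusted p = 0.00537 and 0.0394), and the differences of the effects were 1.15 and 1.27 (adjusted p = 0.743 and 0.788). Osteoclast resorption genes had medians of -0.37 with Axin2 and -0.22 without it, and osteoclast formation genes -0.17 and -0.22. Fibrous matrix genes had medians of 0.24 and 0.15, and bone matrix genes 0.024 and -0.16. The median of bone matrix genes was thus near 0 with Axin2. Without it 3 of the 31 were lower past the adjusted threshold (0.202% of all genes), and 9 were lower at an unadjusted p under 0.05 (5.26% of all genes). The 3 past the adjusted threshold, Ank, Ifitm5 and Kcnk1, were also lower with Axin2 (-0.32 ± 0.09, -0.28 ± 0.10 and -0.17 ± 0.10). For these genes, too, a difference between the backgrounds was not shown.

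**Figure D5:**
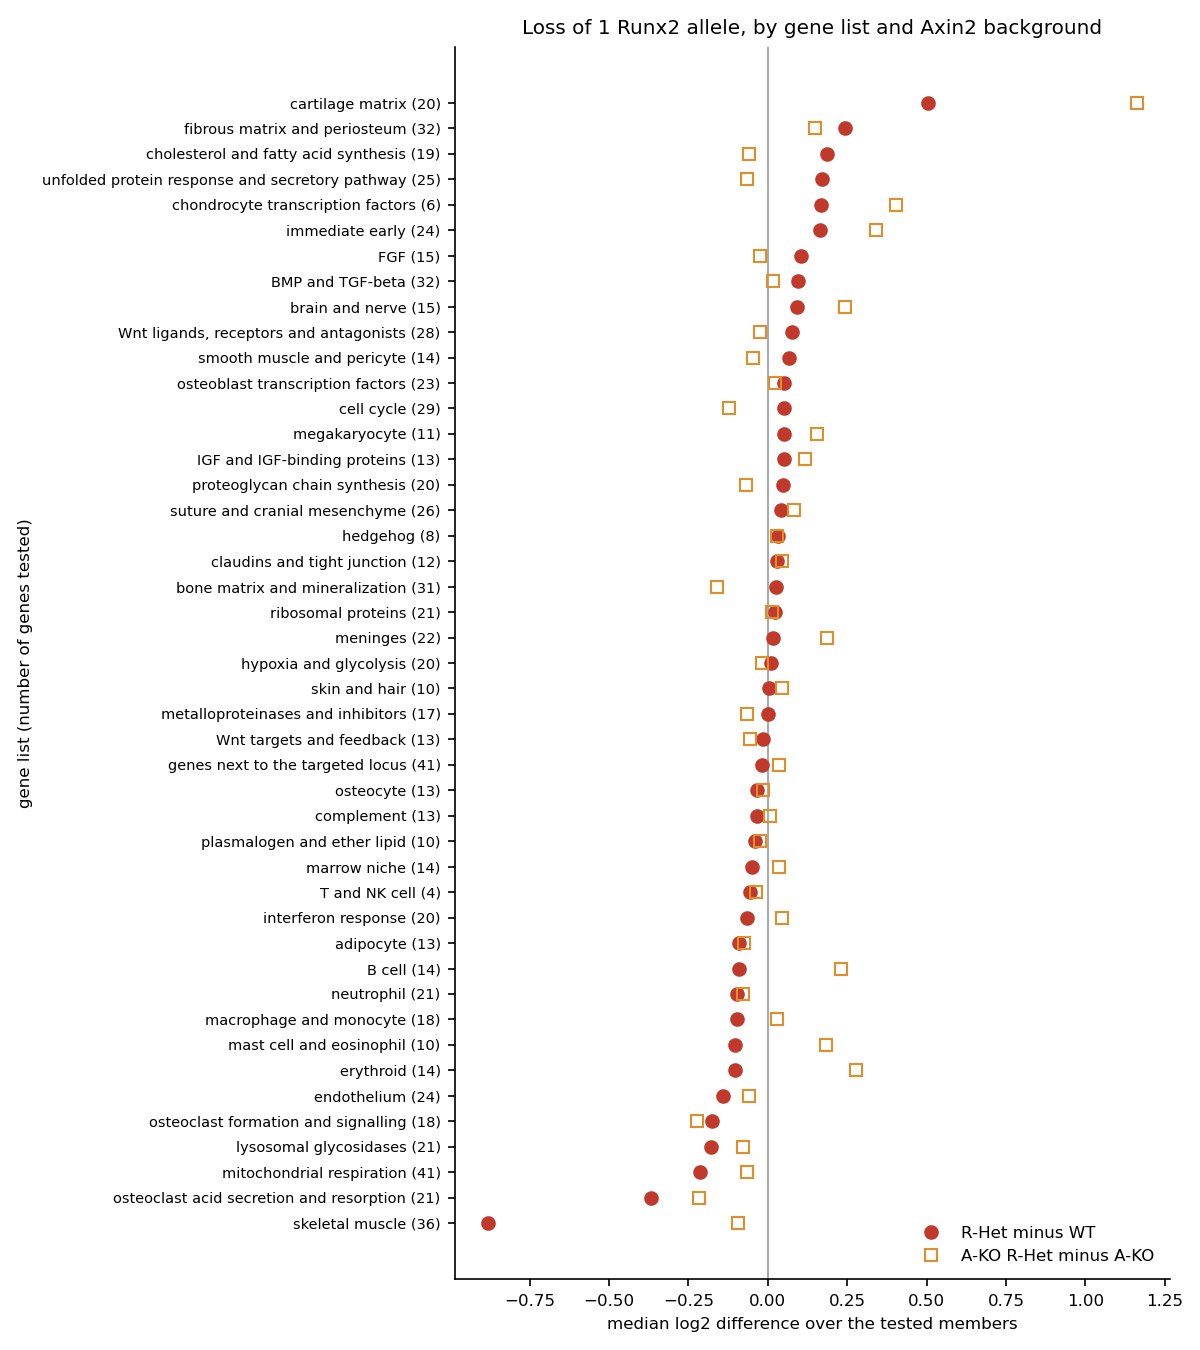
Median log2 difference of each gene list (horizontal axis) for R-Het minus WT (filled circles) and A-KO R-Het minus A-KO (open squares), with the number of genes tested after each name. Cartilage and fibrous matrix lie at the top and osteoclast resorption and skeletal muscle at the bottom for R-Het minus WT, and skeletal muscle lies near 0 for A-KO R-Het minus A-KO.

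The targeted allele sits on chromosome 17, so the 20 tested genes on each side of its neighbour Supt3 were looked at as well. With Supt3 itself, 41 genes had a median of -0.019. At an unadjusted p under 0.05 were 1 higher and 3 lower, against 4.62% of all genes in each direction. No overlap was seen for 1 gene, lower in R-Het, against 2.45% lower among all genes. That gene was Enpp5, a membrane ectonucleotidase 2 places from Supt3, at -0.50 ± 0.12 (adjusted p = 0.125) and -0.09 without Axin2, picked out after its value was seen. Supt3, a subunit of a transcription coactivator complex, stood at 0.10 ± 0.09 (adjusted p = 0.808). The share of genes without overlap was 5.13% on chromosome 17, within the range of 3.48% to 6.92% over the other autosomes.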

How the data were processed

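Total RNA (200 ng) from calvaria of 7-day-old male mice was labelled as biotin cRNA and hybridised to Illumina bead arrays, 1 mouse per array, on 2 chips of 8 arrays with 2 arrays of each genotype on each chip, per the labels' protocols. The authors deposited 1 normalized linear intensity per probe and array; how they were normalized is not stated in any label or header. The scanner table was not used, because its 32 value columns name no sample. Genotypes came from the labels, and, since those number no replicates, replicate numbers follow accession order.

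Deposited intensities were taken to log2 with no offset. Of 25697 probes, 23978 carried 1 gene symbol, 0 several and 1719 none; 23962 were found in RefSeq (GRCm38.p6) and 0 symbols were updated. Probes above the array median on 3 or more of 15 arrays were kept, and the probe of highest mean stood for a gene (2505 genes had several). Genotype means were fitted with limma 3.58.1 (R 4.3.3, lmFit and eBayes) over 15 arrays, with Benjamini-Hochberg adjustment over 9918 genes and a threshold of 0.05. Figures used matplotlib 3.10.9. Data were simulated for R-Het against WT on 9918 genes, of which 200 were changed. Of the changed genes, 67% were recovered at a log2 change of 0.5 (4.29% of calls false) and 97.5% at 1 (2.99% false). The simulated noise was independent between genes, and the share recovered depends on how many genes change. These shares therefore need not hold for the measured genes. Among the latter, Ostm1 (-0.52) and Thbs3 (0.52) did not pass (limma adjusted p = 0.107 for both). Precision was limited by the number of arrays, with 11 residual degrees of freedom per gene in the fit. The smallest exact two-sided p for 4 against 4, 0.0286, belongs to a permutation test, which was not used here.

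The text names all called genes, the 15 of smallest p in each direction, up to 4 of smallest p in each of 44 gene lists, and the defining members of lists. Members and lists were chosen with earlier results of these data known. Alternatives were chip as a block, each chip alone, the 8 R-Het and WT arrays alone, the damaged array kept, quantile normalization, an offset of 16, other filters, probe means, array weights, a trended robust prior, muscle covariate and arrays left out. Runx2 is not analysed here.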

Additional observations from a re-analysis of the deposited data

Results flagged for a closer look

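Single arrays stood apart from the other 3 of their genotype, by Dixon's ratio of the gap to the range, in 23 of 486 groups of 4 examined, 14 of R-Het and 9 of WT arrays. Chance alone marks about 1 in 20 such groups, so this number is close to what chance gives. R-Het replicate 4, the R-Het array highest in skeletal muscle genes, was the array in question most often.

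On R-Het replicate 4, Aldoa, a glycolytic enzyme abundant in muscle, read 11.35 against 10.39 to 10.55 on the other R-Het arrays (ratio 0.832), and the mitochondrial respiration mean was 0.40 against -0.30 to -0.22 (ratio 0.877). Ifit3, an interferon-induced gene, read 8.58 there against 7.55 to 7.65 (0.906). Aplnr, the apelin receptor, read 9.16 against 8.39 to 8.52 (0.831), and Sipa1 read 6.54 against 6.22 to 6.27 (0.846). Lower on that array were Gadd45b, a stress-response gene, at 10.31 against 11.02 to 11.10 (0.895), Hspa1a, a heat-shock chaperone, at 7.81 against 8.28 to 8.33 (0.902), Smad4, the shared SMAD of BMP and TGF-beta signalling, at 11.52 against 11.998 to 12.04 (0.925), and the osteocyte mean at -0.10 against 0.05 to 0.07 (0.864).

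On R-Het replicate 1, Mapk8ip1, a kinase scaffold, read 8.61 against 8.27 to 8.31 (0.891), Cspg4, a pericyte proteoglycan, 8.10 against 7.67 to 7.70 (0.933), and Nfe2, a factor of megakaryocytes and red cells, 7.84 against 7.24 to 7.33 (0.851). On R-Het replicate 3, Vegfa read 10.15 against 10.46 to 10.51 (0.884) and the T and NK cell mean was 0.17 against -0.02 to -0.0031 (0.891).

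Among WT arrays, replicate 1 was high for both Cldn10 (9.12 against 8.59 to 8.66, ratio 0.869) and Manba (9.89 against 9.69 to 9.72, 0.865), which fell in R-Het. Without WT replicate 1 the differences were -0.79 for Cldn10 and -0.48 for Manba. WT replicate 2 was high for Rhag, a red cell membrane gene (7.07 against 6.44 to 6.50, 0.904), Ms4a7, a macrophage gene (9.46 against 9.11 to 9.13, 0.939), and Hdc, which makes histamine (8.08 against 7.61 to 7.65, 0.907). WT replicate 3 was low for Rps6, a ribosomal protein (12.52 against 12.81 to 12.87, 0.846), and Gadd45b (9.97 against 10.14, 0.982). WT replicate 4 was high for Mrgprf (8.83 against 8.53 to 8.56, 0.907) and low for Cdkn1c, a cell cycle inhibitor (12.81 against 12.97, 0.973).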

How the results depend on the processing

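The number of genes called in R-Het against WT (5) was 9 with chip as a block, 0 on chip 1 alone, 0 on chip 2 alone, 1 with the 8 R-Het and WT arrays alone, 2 with the damaged A-KO array kept, 8 with an offset of 16 before log2, 17 with array weights, 2 with the skeletal muscle mean as a covariate, and 1 when the 3 arrays with the most muscle signal were dropped. The count ran from 0 to 15 with each array left out in turn. It stayed within 1.5 times 5 under quantile normalization, other filters, probe means and a trended robust prior. The number in A-KO R-Het against A-KO (55) was 0 on chip 1 alone, 1 on chip 2 alone, 23 with the damaged array kept, 163 with array weights, and 1 to 85 with an array left out. For the difference of the effects (0) it ran from 0 to 1. None of the 5 called genes changed sign in any of the 29 settings. Ndufa1, a respiratory chain subunit, was 0.031 on chip 2 alone, against -0.30 over both chips. The cause of these changes was not tested, beyond the smaller number of arrays on 1 chip or with an array left out. No paired analysis was possible because the labels carry no replicate numbers. With 1 array per mouse and 4 mice per genotype, differences near the median standard error of 0.11 could not be resolved, and genes dim on nearly all arrays were not described.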

Other observations

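A pair of genes with large differences in R-Het against WT took either a low or a high level on each array, and arrays of 1 genotype could differ in it. Ctsc, the gene of a lysosomal dipeptidase, read 6.52, 6.61, 6.45 and 6.42 on R-Het arrays and 6.50, 10.13, 6.31 and 9.46 on WT arrays. All R-Het arrays were low and the WT arrays were mixed. It read 6.27, 6.43, 9.04 and 9.17 in A-KO R-Het and 9.35, 9.35 and 9.33 in A-KO, all high, and its 2 other probes separated the same arrays. The difference of -1.60 ± 0.79 in R-Het against WT did not pass the threshold (limma adjusted p = 0.557).

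Mak16, a ribosome assembly gene, read 6.34, 8.67, 6.40 and 8.55 on R-Het arrays and 7.996, 8.83, 8.85 and 8.65 on WT arrays with its brighter probe. Among A-KO R-Het arrays it read 6.30, 8.18, 8.30 and 8.74, and among A-KO arrays 8.68, 6.49 and 8.09. Its other probe stayed between 7.43 and 7.85 on all 15 arrays. Both genes were singled out after their values were seen.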
